A study of Mus musculus with 1699 samples.

Results

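The Wnt ligands, their receptors and co-receptors, the R-spondins with their Lgr receptors, and the secreted Wnt inhibitors were followed in single neurons of the mouse ventral midbrain. Members were the protein-coding genes named Wnt, Fzd, Sfrp, Dkk or Rspo with a number, together with Lrp5, Lrp6, Wif1, Axin2, Lgr4, Lgr5, Ror1, Ror2 and Ryk. This gave 50 of the 21682 protein-coding entries in the deposited tables. They comprised 19 Wnt ligands, 10 Frizzled receptors, the 2 LRP co-receptors, 3 receptors with a kinase-type domain (Ror1, Ror2 and Ryk), 4 R-spondins, 2 Lgr receptors, 5 Wnt-binding inhibitors (Sfrp1, Sfrp2, Sfrp4, Sfrp5 and Wif1), 4 Dickkopf proteins and Axin2.

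The cells came from mice in which the eGFP coding sequence had been targeted to the Pitx3 locus, and every cell analysed, controls included, carried at least 1 such allele and had been sorted for GFP. Heterozygous mice (Pitx3eGFP/wt) were sampled on embryonic days E13.5, E15.5 and E18.5 and on the postnatal days P1, P7 and P90 (here called stage order), and homozygous mice (Pitx3eGFP/eGFP), which lack normal Pitx3, at E13.5 and P1. Each cell was sequenced by Smart-seq2, and after filtering 1527 cells were kept, of which 1178 were heterozygous. In stage order the heterozygous groups held 9.17%, 9.23%, 12%, 18.4%, 7.2% and 21.2% of the 1527 cells, so that the smallest was P7 with 110 cells, and the homozygous groups 11.7% (E13.5) and 11.1% (P1). Selection was by GFP protein, and the Pitx3 locus need not have been active in every kept cell. The authors removed sorted cells that clustered with eGFP-negative, Olig1-high cells, whereas here a marker rule was used. EGFP reads were present in 71.8% of kept P7 cells and 85.4% of kept heterozygous P1 cells. In homozygotes the cells are the sorted cells still present. EGFP transcript was over RPKM 10 in 92.9% of heterozygous cells at E13.5, 66.4% at P7 and 50.8% at P90. Several animals were used at each stage and none is named for any cell, so that each stage and genotype counts as 1 sample. No test between groups was therefore possible, and the intervals given are 95% intervals that cover counting error over cells only, not the spread between mice.

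Wnt proteins are secreted lipid-modified ligands that bind Frizzled receptors. With the co-receptors Lrp5 or Lrp6 they stabilise β-catenin, and through Ror2, Ryk or Frizzled alone they can act on the cytoskeleton and on axon guidance without β-catenin. R-spondins bound to Lgr receptors keep Frizzled at the cell surface, whereas Sfrp proteins and Wif1 bind the ligands and Dickkopf proteins bind the LRP co-receptors. In the ventral midbrain Wnt1 and Wnt5a are known for their roles in the specification, differentiation and morphogenesis of dopamine neurons, and Axin2, a scaffold of the complex that degrades β-catenin, is a common transcriptional target of the β-catenin branch.

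The median number of assigned reads per kept cell ranged from 753256 in homozygous cells at E13.5 to 2357898 in heterozygous cells at E13.5. Mean RPKM of Pitx3 was 415.7 in heterozygous and 18.8 in homozygous cells at E13.5, and 98.5 and 8.02 at P1. All 6 neuronal markers were over RPKM 10 in most cells of every group. Of 10 dopamine-neuron markers, 8 were over RPKM 10 in most heterozygous cells from E13.5 to P1, 4 at P7 and 6 at P90, and in homozygous cells 8 at E13.5 and 6 at P1. At P7, 31.8% of kept cells, all labelled as neurons, had 3 or more astrocyte markers over RPKM 10, against 0.929% at P90, 8.90% in heterozygous P1 cells and 12.9% in homozygous P1 cells. ERCC spike-in was used in both homozygous groups, at E18.5, at P90 and on 1 plate of heterozygous P1 cells (94 cells). At E13.5 the use of spike-in follows genotype, and between heterozygous E13.5 and E18.5 cells it follows stage, so that neither can be told apart from it there. The dissociation kit changed between E18.5 and P1 and again between P7 and P90, so that these steps of age cannot be told apart from the kit.

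Wnt4 and Wnt7b transcripts were also the targets of padlock probes designed by the study for in situ detection. The sites that lie in coding sequence are shown in full because Wnt7b carries the clearest difference between the neuron classes described below and Wnt4 the late embryonic onset; the Wnt4 site lies in exon 5 on the plus strand, the first Wnt7b site in exon 4 on the minus strand, and the other Wnt7b sites span the junctions of exons 3 and 4 and of exons 1 and 2. Positions are those of mm10, and a range that spans a junction includes the intron.
Wnt4 chr4:137296614-137296653: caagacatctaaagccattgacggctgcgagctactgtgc
Wnt7b chr15:85537450-85537489: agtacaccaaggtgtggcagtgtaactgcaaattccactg
Wnt7b chr15:85537846-85543685: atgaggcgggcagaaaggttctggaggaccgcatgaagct
Wnt7b chr15:85559105-85577522: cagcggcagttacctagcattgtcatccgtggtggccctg

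A gene was counted as detected in a cell when its value exceeded RPKM 10, and levels are means of RPKM, a value per length and per depth, over the cells of a group. A typical cell had few members above this limit, with a median of 3 to 5 members per cell in each group. Only Axin2, Dkk3, Fzd3, Wnt5a and Wnt7b were detected in at least 10% of cells of all 8 groups. Another 22 members stayed under 5% of cells in every group, among them Wnt1, Wnt3a, Lrp5, Dkk1, Dkk2, Fzd6 and Sfrp5, and Dkk4 and Wnt8a were over the limit in no kept cell. Averaged over the 6 stages of heterozygous mice, Wnt5a had the highest mean (134.1 RPKM), followed by Fzd3 (78.2), Wnt7b (29.4), Dkk3 (27.4), Wif1 (19.2) and Axin2 (14.5). The mean of Wif1 comes almost wholly from P7, where it was 111.1 RPKM, and is described with the glial markers below.

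**Figure D1:**
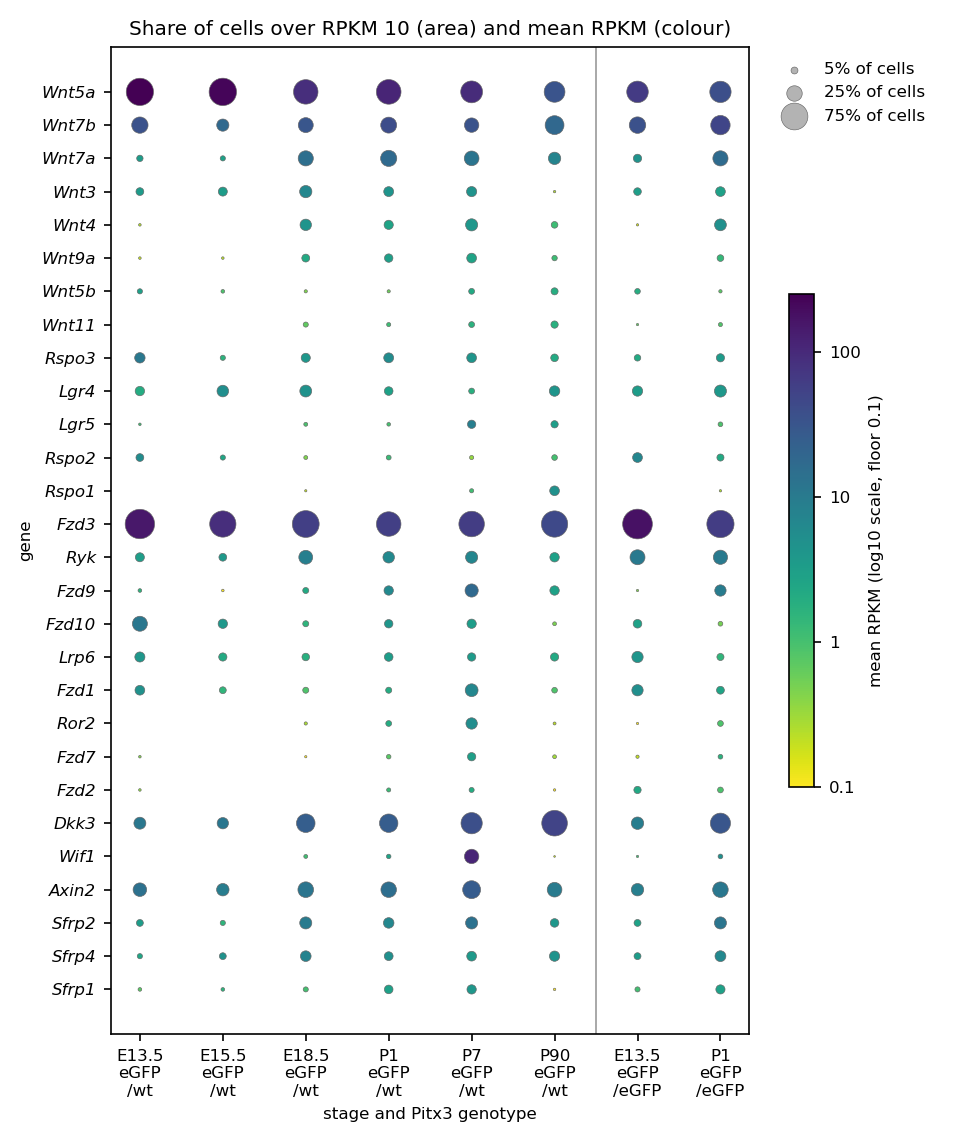
Detection of the 28 members that passed 5% of cells in at least 1 group, by group (columns: 6 stages of heterozygous and 2 of homozygous cells). The area of a circle is the share of cells over RPKM 10 and its colour the mean RPKM on a log10 scale; Wnt5a and Fzd3 are large in all 8 columns, while Wif1 stands out at P7 alone (21.8% of cells).

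Most kept cells carried at least 1 Wnt ligand at every stage. In stage order the share of cells with any Wnt ligand over RPKM 10 was 82.9%, 84.4%, 82.5%, 85.4%, 79.1% and 77.4%. In homozygous cells it was 68.7% at E13.5 and 86.5% at P1. Wnt5a was the largest part of the summed ligand mean at each heterozygous stage, with a share that differed between stages. It gave 84.3% of the summed ligand mean at E13.5 and 89.6% at E15.5, but 59.4% at E18.5 and 48.7% at P90.

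Wnt5a (chr14:28504750-28527448, plus strand, mm10), a ligand known mainly for β-catenin-independent signalling, was highest in the embryo. In stage order its mean was 250.2, 222.3, 89.3, 113.2, 96.2 and 33.2 RPKM, and its median over cells 187.9, 126.8, 33.4, 46.9, 9.65 and 7.05 RPKM. Its share of cells was 77.9% at E13.5 (70.1 to 84.4) and 62.8% at E18.5 (55.4 to 69.9), and by P90 it was 45.2% (39.7 to 50.8). The distributions overlapped widely, since the highest single cell reached 1056 RPKM at E13.5 and 408.3 at P90 while many cells of each stage were near 0. The share was 15.0 percentage points lower at E18.5 than at E13.5 (interval 4.93 to 24.4 points lower, log2 ratio of means −1.49) and a further 17.6 points lower at P90 (8.61 to 26.2 points lower, log2 −1.43). The 2 steps share the E18.5 cells. After every cell was thinned to 100000 reads the shares at E13.5, E18.5 and P90 were 77.1%, 61.2% and 47.4%. The RPKM value of 1 Wnt5a read varied 4.06-fold between the 10th and 90th percentile of cells. This was the widest variation among the members with enough reads for this measure. Exons of Gm2670 overlap the gene, and their reads cannot be told apart without strand.

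Other ligands were higher late in gestation. Wnt7a, a ligand with known roles at synapses and, with Wnt7b, in the vasculature of the brain, was detected in 4.29%, 2.84%, 24%, 27.4%, 22.7% and 16.1% of cells in stage order. Its mean was 3.42 RPKM at E13.5, 14.8 at E18.5 and 7.31 at P90, and its share was 19.8 points higher at E18.5 than at E13.5 (12.4 to 26.8; log2 ratio 2.11). Wnt4 was in 0.714% of cells at E13.5 and in 0 cells at E15.5, which allows a share of up to 2.13%, and in 13.7%, 8.90%, 15.5% and 4.64% at the later stages. Its mean was 0.242 RPKM at E13.5, and 4.36 and 1.16 RPKM at E18.5 and P90. Both genes thus sat at the edge of detection until E15.5 and in a minority of cells from E18.5 onward. Wnt9a showed the same order at a lower level, with 0.714% of cells at E13.5 and 6.56% at E18.5.

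Wnt3, a ligand of the β-catenin branch, was present from E13.5 to P7 and close to absent at P90. It was detected in 6.43%, 8.51%, 15.8%, 10.3%, 10.9% and 0.619% of cells in stage order, with a mean of 6.68 RPKM at E18.5 and 0.249 at P90. The share was 15.2 points lower at P90 than at E18.5 (10.4 to 21.2 points lower; log2 −4.75). Wnt7b did not follow age in this way, since it was detected in 27.9%, 15.6%, 23.5%, 26.7%, 21.8% and 37.2% of cells from E13.5 to P90 with a mean between 17.6 and 40.2 RPKM. Wnt5b, the closest relative of Wnt5a, was in 1.09% of cells at E18.5 and 5.26% at P90, and Wnt11 in 2.73% and 5.57%. The mean of Wnt5b was lower at E18.5 than at E13.5 (log2 ratio −2.71) and higher at P90 than at E18.5 (2.04). Wnt2 and Wnt10a had 6 cells each over RPKM 10 at P90, and at the other heterozygous stages Wnt2 had none and Wnt10a had 1 cell, at P7. Wnt1 was over the limit in 0 of 140 cells at E13.5, which allows up to 2.14%, and in no more than 2.13% of cells of any group.

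**Figure D2:**
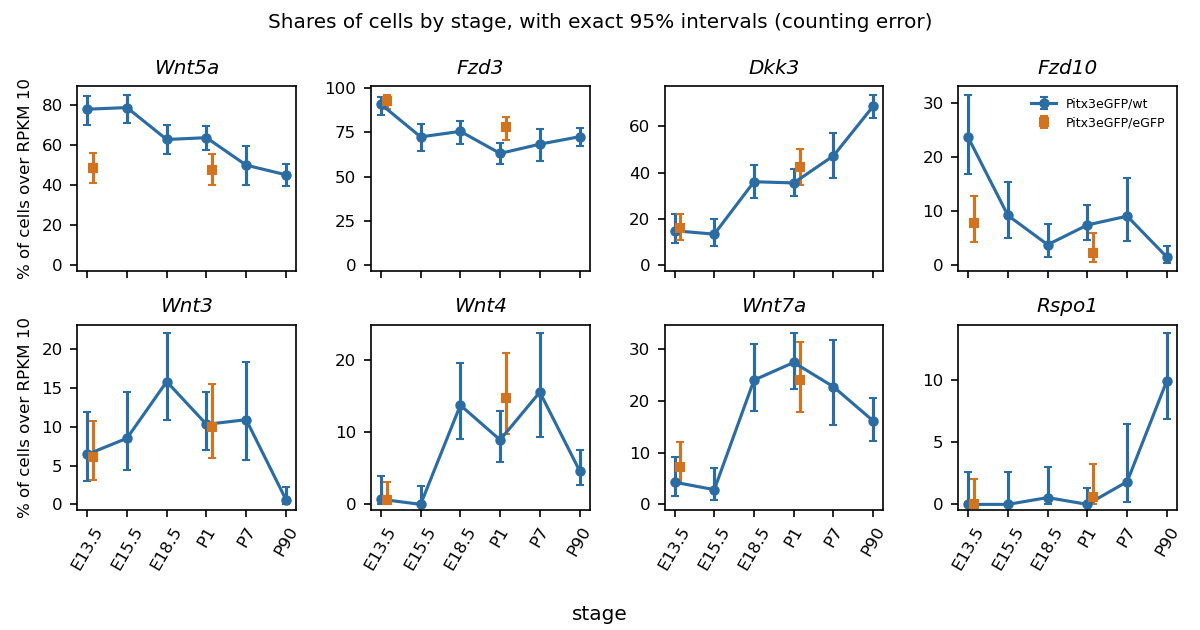
Share of cells over RPKM 10 (y axis, percent) by stage (x axis) for 8 members, 1 panel each; points are heterozygous groups, bars exact 95% intervals, and orange points the homozygous groups at E13.5 and P1. Wnt5a and Fzd10 go from 77.9% and 23.6% at E13.5 to 45.2% and 1.55% at P90, Dkk3 reaches 68.7% at P90, and Wnt7a and Wnt4 are higher from E18.5.

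Among the receptors, Fzd3 dominated. Fzd3 (chr14:65192449-65262463, minus strand), a Frizzled with an established part in axon guidance, had means of 153.9, 89.6, 59.1, 59.3, 62.4 and 45.3 RPKM in stage order, and was detected in 63% to 90.7% of cells. Its mean was lower at E18.5 than at E13.5 by 1.38 on the log2 scale, and its share by 15.3 points (7.08 to 23). It made up 89.3% of the summed Frizzled mean at E13.5 and at P90, but 60.7% at P7. Fzd10 (chr5:128600844-128604093, plus strand) was an early gene, with 23.6% of cells at E13.5 (16.8 to 31.5) and 9.22%, 3.83%, 7.47%, 9.09% and 1.55% at the stages that followed. Its share at E18.5 was 19.7 points under that at E13.5 (12.4 to 27.7), with means of 1.54 and 11.1 RPKM. Fzd1 was in 10% of cells at E13.5 and 3.83% at E18.5. Fzd9 peaked at P7 with 18.2% of cells, against 3.83% at E18.5 and 9.29% at P90. The P7 values of Fzd1 (17.3%) and Fzd9 go with the astrocyte markers given below.

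The co-receptors were sparse. Lrp6 was detected in 10.7% of cells at E13.5 and in 6.01% to 7.83% at the later stages, and Lrp5 in no more than 2.73% at any stage of heterozygous mice and in 0 cells at P90, which allows up to 0.929%. The RPKM worth of 1 read varied 3.93-fold between cells for Lrp6. Ryk, an atypical kinase-like Wnt receptor used in axon guidance, was in 8.57% of cells at E13.5, and in 20.2% and 9.29% at E18.5 and P90. Ryk was 11.6 points higher at E18.5 than at E13.5 (3.86 to 19; log2 1.45) and 10.9 points lower at P90 than at E18.5. The first of these steps also follows spike-in, with which the Ryk share differed among heterozygous P1 cells (below). Ror2, a receptor of Wnt5a, was in 0 of 140 cells at E13.5 (up to 2.14%), 1.09% at E18.5, 13.6% at P7 and 0.929% at P90. In the P7 cells with under 3 markers of each other cell type (lists given below) Ror2 was in 2.90%.

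The R-spondins differed in when they were detected. Rspo2 was detected in 6.43% and Rspo3 in 11.4% of cells at E13.5, against 1.64% and 8.74% at E18.5, and the mean of Rspo3 was 10.8 RPKM at E13.5 and 1.62 to 5.83 thereafter. Rspo1 was at 0 of 140 cells at E13.5 (up to 2.14%), 0.546% at E18.5, 1.82% at P7 and 9.91% at P90 (6.88 to 13.7). Its share was 9.36 points higher at P90 than at E18.5 (5.62 to 13.1), with means of 4.89 and 0.206 RPKM. Their receptor Lgr5 was in 0.714% of cells at E13.5, and in 1.64%, 7.27% and 5.57% at E18.5, P7 and P90. It was in none of the P7 cells with under 3 markers of each other type. Lgr4, named here after its values were seen, was in 3.64% to 14.8% of cells.

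Dkk3, a divergent Dickkopf protein whose action on Wnt signalling is debated, was detected in more cells at later ages. In stage order its share of cells was 15%, 13.5%, 36.1%, 35.6%, 47.3% and 68.7% (63.4 to 73.7 at P90). Its mean went from 11.2 RPKM at E13.5 to 24.9 at E18.5 and 52.6 at P90, where the median cell had 40.9 RPKM. The share was 21.1 points higher at E18.5 than at E13.5 (11.6 to 29.8) and 32.7 points higher at P90 than at E18.5 (23.8 to 40.8). Sfrp2 was in 5%, 15.3%, 15.5% and 7.74% of cells at E13.5, E18.5, P7 and P90, with a mean of 3.46 RPKM at E13.5 and 13.7 at P7. Within the Slc6a3-high, Nxph4-high and Gad2-high classes described below, the Sfrp2 share was similar from E18.5 to P7 and at P90. This does not cover the cells of no class, which were 39.7% of cells from E18.5 to P7 and 8.98% at P90. Sfrp4 was in 2.86% of cells at E13.5 and in 12% and 11.1% at E18.5 and P90. Sfrp1 was in 2.73% of cells at E18.5 and 0.619% at P90. Axin2 showed no such order, with 19.3%, 16.3%, 25.7%, 25.3%, 33.6% and 22.6% of cells from E13.5 to P90. Its mean was 26.3 RPKM at P7 and 9.43 to 15.1 at the other stages. Its share in the P7 cells with under 3 markers of each other type was 20.3%.

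Counted over all members, a comparison used the genes with a mean of at least 1 RPKM in the higher group, and a gene was called when its means differed more than 2-fold. The shares over all genes, here and below, were not matched to the members for level or for the share of cells detected. A low mean carried by few cells can pass 2-fold easily. From E13.5 to E18.5, 10 of 25 members were higher and 9 lower, where 19.3% of all genes were higher and 10.1% lower. The median log2 ratio was 0.50 over these members and 0.03 over all genes. From E18.5 to P90, 6 of 25 were higher and 9 lower, beside 14.9% and 17.7% of all genes, with medians of −0.73 and −0.09. Without plate 18_2 the counts were 3 higher and 7 lower, and without plate 18_1 they were 5 and 12. The other 25 members had a mean under 1 RPKM at both ages in either step.

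In homozygous cells Wnt5a was lower than in heterozygous cells at both ages. At E13.5 its mean was 64.8 RPKM against 250.2, its median 6.30 against 187.9, and it was detected in 48.6% of homozygous cells (41.1 to 56.2) against 77.9%, a difference of 29.3 points (18.8 to 38.7 points lower; log2 −1.95). At P1 the mean was 38.2 against 113.2 RPKM and the share 47.6% against 63.7%, 16.1 points lower (6.61 to 25.2; log2 −1.57). The single-cell ranges overlapped fully at the low end, and the highest homozygous cell reached 765.3 RPKM at E13.5. The homozygous plates at E13.5 gave 46%, 59.1% and 48.6% of cells and those at P1 51.8% and 43.5%, all under the heterozygous groups. No plate is named for the heterozygous E13.5 cells or for the heterozygous P1 cells without spike-in. Their spread between plates is therefore unknown. Reads per cell were lower in homozygous E13.5 cells, and with every cell thinned to 100000 reads the shares were 47.5% and 77.1%. Against the heterozygous P1 cells that also carried spike-in, the homozygous share at P1 was 25.8 points lower (13.5 to 36.6).

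Other members also separated the genotypes at E13.5. Fzd10 was detected in 7.82% of homozygous cells (4.34 to 12.8) and 23.6% of heterozygous cells, 15.8 points lower (7.81 to 24), with means of 2.84 and 11.1 RPKM. Rspo3 was in 4.47% against 11.4% of cells (means 2.16 and 10.8 RPKM). Ryk was higher in the homozygous cells, at 23.5% (17.5 to 30.4) against 8.57%, 14.9 points more (6.81 to 22.5; log2 1.73). Only the homozygous cells had spike-in here, and among heterozygous P1 cells the Ryk share also differed with spike-in (below). Fzd2 was in 5.59% of homozygous cells and 0.714% of heterozygous cells. Fzd3 (92.7% and 90.7%), Wnt7b (28.5% and 27.9%), Dkk3 (16.2% and 15%) and Axin2 (16.2% and 19.3%) differed by little in share. Wif1 was past 2-fold through 1 homozygous cell. Lgr5 was lower past 2-fold in homozygous cells, but without the highest cell of each group its log2 ratio was 0.92, in the other direction. In all, 3 of 23 members were higher and 5 lower in homozygous cells, where 6.78% and 6.25% of all genes were. With pooled reads scaled by median ratios the split was 4 higher and 4 lower.

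At P1 the pattern differed in part. Fzd10 was in 2.35% of homozygous and 7.47% of heterozygous cells, 5.12 points lower (0.767 to 9.07), but only 1.90 points lower (8.25 lower to 2.48 higher) against the heterozygous plate with spike-in. Fzd3 was detected in 77.6% of homozygous and 63% of heterozygous cells, 14.7 points more (5.93 to 22.7), although its means were close (62.5 and 59.3 RPKM). Wnt7b was in 39.4% against 26.7%, 12.7 points more (3.82 to 21.6). Against the spike-in plate these differences were 18.1 points (6.49 to 29.6) for Fzd3 and 13.9 points (1.94 to 24.7) for Wnt7b. Ryk was in 21.2% of homozygous cells, against 13.9% of all heterozygous cells and 20.2% of those with spike-in. Its differences by genotype at E13.5 and from E13.5 to E18.5, where spike-in also differs, cannot be told apart from spike-in. Of 30 members 1 was higher and 7 lower in homozygous cells, beside 6.25% and 5.49% of all genes, and with only the spike-in plate as control the split was 6 higher and 5 lower. Leaving out any 1 named plate gave 3 or 4 higher and 7 lower. Fzd7, Sfrp5, Fzd6 and Ror2 passed 2-fold on a few cells with high values, and each changed direction when cells with glial, microglial or other markers were left out (log2 −5.06, 1.67, 2.27 and 0.16).

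Th, the rate-limiting enzyme of dopamine synthesis, had a lower mean in homozygous than in heterozygous cells. Its means were 565.0 and 1326 RPKM at E13.5, and 683.1 and 1284 RPKM at P1. The genotypes were therefore also compared within cells over and under RPKM 150 for Th. The split thus uses a gene whose own values differ between the genotypes. Th-high cells were 64.3% of heterozygous and 43% of homozygous cells at E13.5 and 61.9% and 51.2% at P1. Among them Wnt5a was in 39% of 77 homozygous and 76.7% of 90 heterozygous cells at E13.5, 37.7 points lower (22.9 to 50.3), and in 32.2% of 87 homozygous and 60.9% of heterozygous cells at P1, 28.7 points lower (16 to 40). Among Th-low cells the E13.5 values were 55.9% of homozygous and 80% of 50 heterozygous cells, 24.1 points lower (8.13 to 37.2). At P1 the Th-low values were 63.9% and 68.2%, a difference within its interval (17.8 points lower to 8.95 higher). Th-high cells showed the same direction for Fzd10 at E13.5 (10.4% and 27.8%) and P1 (0 of 87 cells, which allows up to 3.45%, and 9.20%), and for Ryk at E13.5 (22.1% and 8.89%). The classes described next were also compared between genotypes. Few homozygous cells were Slc6a3-high (1 at E13.5 and 16 at P1). Among Nxph4-high cells Wnt5a was in 66.1% of 59 homozygous and 86.8% of 38 heterozygous cells at E13.5, 20.7 points lower (2.95 to 35.5). At P1 the share was 84% of 25 and 74.4% of 39 cells (12.1 points lower to 27.8 higher), with means of 60.3 and 128.3 RPKM. Among Gad2-high cells at P1 Wnt5a was in 61.3% of 31 homozygous and 96.6% of 29 heterozygous cells, 35.3 points lower (14.9 to 53), with means of 65.9 and 230.4 RPKM, and at E13.5 in 2 of 6 and 11 of 12 cells. In the cells of no class the share was 40.7% of homozygous and 70.8% of heterozygous cells at E13.5, 30.1 points lower (15 to 43), and 35.7% and 40.6% at P1 (18 points lower to 8.51 higher), with P1 means of 27.1 and 51.7 RPKM. Of Slc6a3-high cells at P1, 6 of 16 homozygous cells (37.5%) and 71.2% of heterozygous cells had Wnt5a. Whether the genotypes differ more in one class than in another was not tested. Wnt7b in Gad2-high cells at P1 was in 80.6% of homozygous and 79.3% of heterozygous cells (18.8 points lower to 21.7 higher). Wnt4 was in 23% of Th-high homozygous cells at P1 and 10.3% of heterozygous ones, 12.6 points more (3.32 to 23.2), and Wnt7b in 37.9% and 20.1%.

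**Figure D3:**
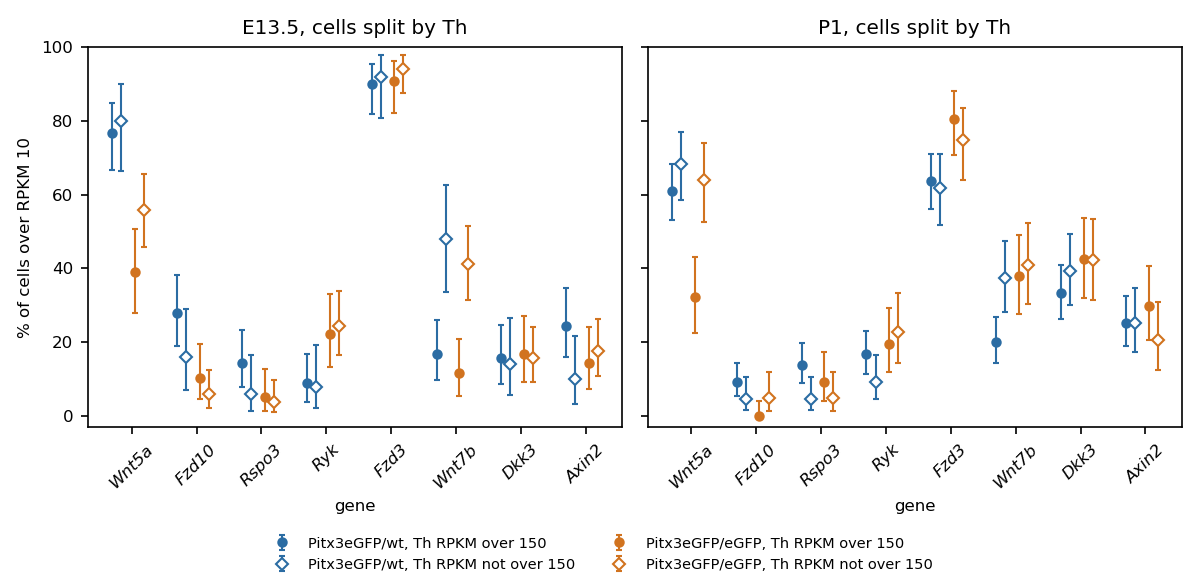
Share of cells over RPKM 10 (y axis, percent) for 8 members at E13.5 and P1, with cells split by Th over RPKM 150 (filled) or not (open) and by genotype (blue heterozygous, orange homozygous); bars are exact 95% intervals. In Th-high cells Wnt5a is lower in homozygotes at both ages (39% against 76.7%, and 32.2% against 60.9%), whereas in Th-low P1 cells it is 63.9% against 68.2%.

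Heterozygous neurons were then grouped by whether Slc6a3, the dopamine transporter, Nxph4, a neurexophilin, or Gad2, a GABA-synthesising enzyme, was the one of these genes over RPKM 150. Of 574 cells at E18.5, P1 and P7 this made 36.1% Slc6a3-high, 11.1% Nxph4-high (64 cells) and 11% Gad2-high (63 cells), with 39.7% in none and 12 cells in several. Of the P90 cells 20.4% were Slc6a3-high (66 cells), 44.9% Nxph4-high and 17.6% Gad2-high (57 cells), with 29 cells in none and 26 in several. At P90, 15 cells had Slc6a3, 76 had Nxph4 and 26 had Gad2 between 75 and 300 RPKM, so that the Nxph4 limit in particular cuts through a continuous range. Median reads of the 3 P90 classes lay between 1793725 and 1845411.

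Gad2-high cells had the highest share of cells with Wnt ligands, though not the most different ligands. At P90, 3 ligands were over RPKM 10 in at least 5% of Gad2-high cells, against 6 for Nxph4-high and 4 for Slc6a3-high cells. The pair of Wnt5a and Wnt7b was in 61.4% of Gad2-high cells. At least 1 Wnt ligand was over RPKM 10 in 96.5% of Gad2-high, 76.6% of Nxph4-high and 62.1% of Slc6a3-high cells at P90, and at least 2 ligands in 64.9%, 35.2% and 28.8%. From E18.5 to P7 at least 2 ligands were in 87.3% of Gad2-high, 34.4% of Nxph4-high and 52.7% of Slc6a3-high cells. Frizzled receptors did not separate the classes in this way, with at least 1 in 84.2%, 75.2% and 80.3% of cells at P90.

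Wnt7b was detected in most Gad2-high cells at every age. At P90 it was detected in 80.7% of Gad2-high cells (68.1 to 90.0), 35.9% of Nxph4-high cells (28.1 to 44.2) and 18.2% of Slc6a3-high cells (9.76 to 29.6), with means of 58.7, 13.1 and 5.74 RPKM. The Slc6a3-high share was 62.5 points under the Gad2-high share (46.2 to 73.6; log2 −3.35) and 17.7 points under the Nxph4-high share (4.48 to 28.7; log2 −1.19). The latter ratio of Wnt7b was −0.70, under 2-fold with a class limit of RPKM 300. In the Gad2-high cells of the P90 plates it was 46.2%, 77.8%, 90.0% and 100%, and on each plate this was above both other classes. From E18.5 to P7 Wnt7b was in 79.4% of Gad2-high (67.3 to 88.5), 21.9% of Nxph4-high and 21.7% of Slc6a3-high cells, with means of 168.5, 13 and 19.8 RPKM. By stage the Gad2-high and Slc6a3-high shares of Wnt7b were 88% and 18.4% at E18.5, 79.3% and 25% at P1, and for the 9 Gad2-high cells of P7 55.6% and 18.5%. At E13.5 and E15.5 the 22 Gad2-high cells had 81.8% (59.7 to 94.8), against 12.7% of 63 Slc6a3-high cells. Exons of AU022754 overlap Wnt7b, and their reads cannot be told apart.

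Wnt5a was also highest in the Gad2-high cells. At P90 it was in 75.4% of Gad2-high (62.2 to 85.9), 37.2% of Nxph4-high and 28.8% of Slc6a3-high cells, with means of 79.8, 17.1 and 24.2 RPKM, and the Slc6a3-high share was 46.7 points under that of Gad2-high cells (29.4 to 60). On the P90 plates Wnt5a was in 69.2%, 66.7%, 85% and 73.3% of Gad2-high cells, above both other classes on each. Between Slc6a3-high and Nxph4-high cells the difference in Wnt5a had an interval from 21 points lower to 5.54 higher. From E18.5 to P7 the shares of Wnt5a were 93.7%, 75% and 69.1%, with the Gad2-high share 24.6 points above Slc6a3-high (13.9 to 32.2). Both ligands together were over RPKM 10 in 35 of 57 Gad2-high cells at P90 (61.4%, 47.6 to 74), in 14 Nxph4-high cells (9.66%) and in 5 of 66 Slc6a3-high cells (7.58%).

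Other ligands were detected in more Slc6a3-high than Nxph4-high neurons. Wnt7a at P90 was in 36.4% of Slc6a3-high (24.9 to 49.1), 15.8% of Gad2-high and 6.90% of Nxph4-high cells, 29.5 points above the Nxph4-high share (17.6 to 41.9; log2 1.86). On each of the P90 plates its Slc6a3-high share exceeded its Nxph4-high share (38.5% and 17.9%, 47.6% and 5.26%, 18.2% and 1.96%, and 25% and 0%). With a class limit of RPKM 300 the log2 ratio of Wnt7a was 0.94, under 2-fold. From E18.5 to P7 the 3 classes were close for Wnt7a, at 29.5%, 27% and 21.9% (Slc6a3-high, Gad2-high and Nxph4-high). The Wnt7a share of Slc6a3-high cells was thus not lower at P90, unlike the share over all kept cells. Wnt3 was in 18.8% of Slc6a3-high cells in that period, against 3.12% of Nxph4-high (15.7 points more, 6.78 to 22) and 4.76% of Gad2-high cells (14.1 points more, 4.49 to 20.7). Its Slc6a3-high share was 22.4%, 15.4%, 22.2% and 1.52% from E18.5 to P90 in stage order. Wnt4 was in 14% of Slc6a3-high and 4.69% of Nxph4-high cells from E18.5 to P7 (9.32 points more, 0.155 to 15.5), but also in 13.2% of the cells of no class and in 7.94% of Gad2-high cells. At P1 alone Wnt4 was in 8.65% of Slc6a3-high and 12.9% of the cells of no class. At P90 it was in 7.58%, 4.83% and 0 of 57 Gad2-high cells, which allows up to 5.26%. The 2-fold difference of Slc6a3-high from Nxph4-high cells in Wnt4 at P90 rested on plate P90_5 (2 of 8 and 0 of 17 cells), without which the log2 ratio of means was 0.47 in place of 1.26. Fzd10 was in 9.66% of Slc6a3-high and 3.12% of Nxph4-high cells from E18.5 to P7.

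Some sparse members at P90 were detected in more Nxph4-high than Slc6a3-high cells. Rspo2 was in 6.21% of Nxph4-high, 1.75% of Gad2-high and 0 of 66 Slc6a3-high cells (up to 4.55%). Fzd9 was in 15.2% of Nxph4-high, 6.06% of Slc6a3-high and 0 of 57 Gad2-high cells (up to 5.26%), 15.2 points over Gad2-high (7.16 to 21.9). Wnt5b was in 8.28% of Nxph4-high, 1.52% of Slc6a3-high and 3.51% of Gad2-high cells, and the order of the last 2 in mean turned with a class limit of RPKM 50 (log2 −2.53 and 4.68). Wnt9a was in 5.52% of Nxph4-high, 0 Slc6a3-high (up to 4.55%) and 1.75% of Gad2-high cells. Wnt2 was in 4.14% of Nxph4-high cells and in no cell of the other classes, with means of 2.17 RPKM in Nxph4-high, 0.00757 in Slc6a3-high and 0.0256 in Gad2-high cells. Lgr5 was in 12.3% of Gad2-high cells, 4.83% of Nxph4-high cells and 0 of 66 Slc6a3-high cells, which allows up to 4.55%, 12.3 points under the Gad2-high share (3.99 to 23.2). Fzd3 (78.8%, 65.5% and 82.5%), Dkk3 (72.7%, 68.3% and 59.6%) and Axin2 (21.2%, 19.3% and 21.1%) were detected widely in the Slc6a3-high, Nxph4-high and Gad2-high cells.

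Further members passed 2-fold between classes on few cells. Wnt10b was in 7 Slc6a3-high cells from E18.5 to P7 (3.38%) and 2 at P90 (3.03%), and in no Nxph4-high or Gad2-high cell of either period, with means of 1.03 and 1.16 RPKM in Slc6a3-high cells. Rspo3 from E18.5 to P7 was in 7.25% of Slc6a3-high, 1.56% of Nxph4-high and 11.1% of Gad2-high cells, and the first 2 differed by 5.68 points (1.65 lower to 10.2 higher). Rspo1 at P90 was in 10.6% of Slc6a3-high, 6.21% of Nxph4-high and 15.8% of Gad2-high cells, and before P90 in 1 Nxph4-high cell and in none of the other classes. Fzd7 was in 4 of 57 Gad2-high cells at P90 (7.02%) and in no Slc6a3-high cell. Wnt11 at P90 was in 4.55% of Slc6a3-high, 8.28% of Nxph4-high and 1.75% of Gad2-high cells, and Wnt10a in 6 Nxph4-high cells alone. Dkk2, which binds the LRP co-receptors, was in 0 cells at E13.5 (up to 2.14%) and 2.19% at E18.5, and at P90 in 2 Slc6a3-high, 1 Nxph4-high and 2 Gad2-high cells.

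Sfrp2, a secreted Wnt-binding inhibitor, was rare in Nxph4-high cells. At P90 it was in 0.690% of these cells, 10.6% of Slc6a3-high and 26.3% of Gad2-high cells, and the Slc6a3-high share was 9.92 points above Nxph4-high (3.71 to 19.6; log2 3.62) and 15.7 points under Gad2-high. From E18.5 to P7 it was in 0 of 64 Nxph4-high cells (up to 4.69%), 10.1% of Slc6a3-high and 25.4% of Gad2-high cells, and the log2 ratio of Slc6a3-high to Nxph4-high cells went from 6.78 to 1.20 with a class limit of RPKM 50. At E13.5 and E15.5 Sfrp2 was in 0 of 60 Nxph4-high cells (up to 5%), 3.17% of Slc6a3-high and 9.09% of Gad2-high cells. By genotype Sfrp2 was in 5.03% of homozygous and 5% of heterozygous cells at E13.5, and in 15.3% and 11.7% at P1, 3.55 points more (2.77 lower to 10.5 higher) with means of 11.9 and 6.61 RPKM. The promoter of Sfrp2 is printed because the gene separates the classes and because its window holds the letters TAATCC, recognised by bicoid-type homeodomain proteins such as Pitx3, on the minus strand. RefSeq promoter sequence was found for 33 members, and the 250 bases before each start were searched on both strands (36 windows). TAATCC was in 3 of these windows (Fzd1, Sfrp2 and 1 of 2 windows of Wnt11), where 6.25% of 32851 such windows of all genes hold it, and CTTTGAT, bound by TCF/LEF factors, in 2 (Wnt5b and the other Wnt11 window), where 3.21% do. A match describes the letters only. The 250 bases before the Sfrp2 start follow (plus strand, GRCm38), with the match in capitals.
Sfrp2 chr3:83766071-83766320: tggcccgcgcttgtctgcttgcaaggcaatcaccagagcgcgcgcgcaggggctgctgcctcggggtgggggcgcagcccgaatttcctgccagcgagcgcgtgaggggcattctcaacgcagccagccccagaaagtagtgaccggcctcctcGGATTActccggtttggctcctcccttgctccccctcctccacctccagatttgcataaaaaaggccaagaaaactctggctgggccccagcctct

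**Figure D4:**
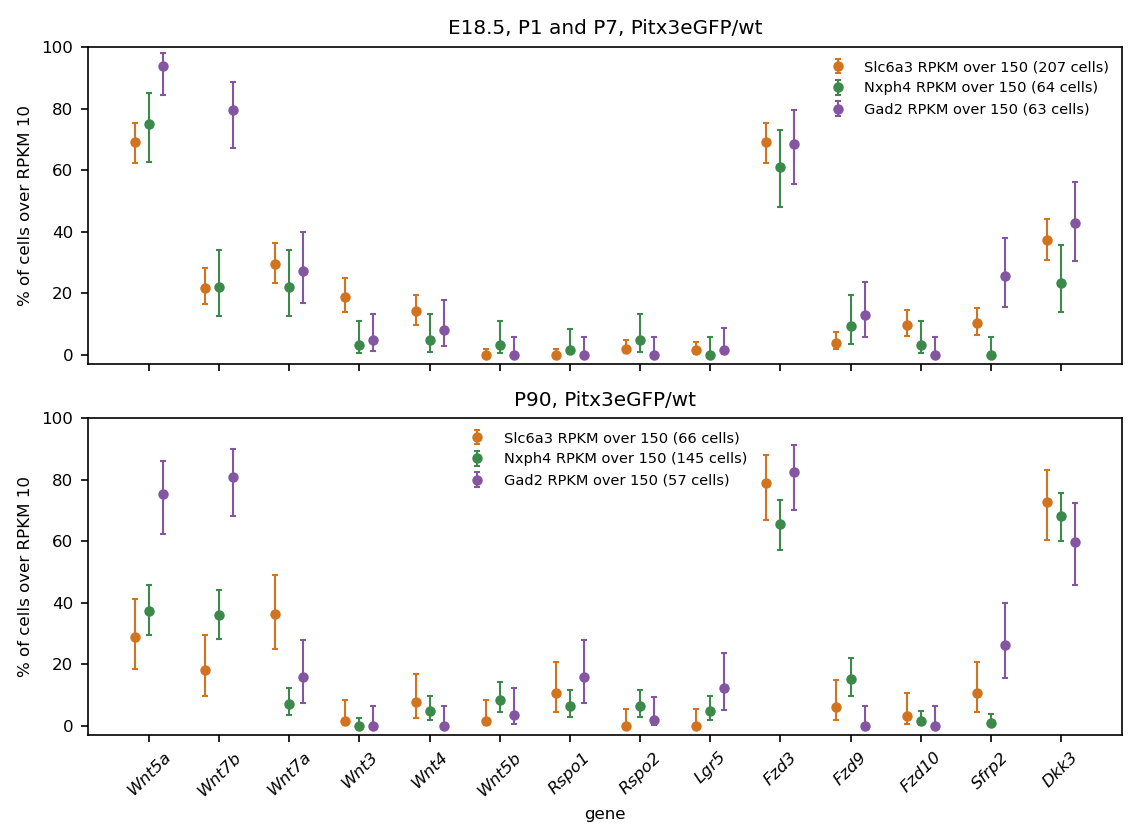
Share of cells over RPKM 10 (y axis, percent) of 14 members (x axis) in Slc6a3-high, Nxph4-high and Gad2-high heterozygous cells, from E18.5 to P7 and at P90; bars are exact 95% intervals. Wnt7b and Wnt5a are highest in Gad2-high cells in both panels (80.7% and 75.4% at P90), and Wnt7a at P90 in Slc6a3-high cells (36.4%).

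Counted over members, 8 of 26 were higher and 5 lower in Slc6a3-high than in Nxph4-high cells from E18.5 to P7, beside 9.67% and 11.3% of all genes, and pooled reads gave 8 higher and 8 lower. Without plate 18_1 they were 7 and 8. At P90, 7 of 25 were higher and 10 lower against Nxph4-high cells, beside 7.98% and 14.7%. Against Gad2-high cells 3 of 20 were higher and 6 lower, beside 9.63% and 13.8%, and without plate P90_5 the counts were 6 higher and 5 lower. The 2 comparisons at P90 share the Slc6a3-high cells. The median log2 ratio of all genes was −0.16 and −0.11 in these, as over the 25 and 20 members with a mean of at least 1 RPKM in either class. Over members at any level with a mean above 0 in both classes it was 0.24 and −0.12. Lrp6, Fzd9 and Sfrp1, all lower in Slc6a3-high than in Nxph4-high cells before P90, changed direction in at least 1 alternative treatment of the cells.

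A part of the P1 and P7 values moves with markers of other cell types. Of the heterozygous cells at these ages 34 at P1 and 69 at P7 had been left out for 3 or more oligodendrocyte markers. Among these left-out cells 60.2% also had 3 or more astrocyte markers and 74.8% had 3 or more progenitor markers. Of the 391 kept, 60 had 3 or more astrocyte markers. In all, 82.1%, called unmarked, had under 3 markers of each of the oligodendrocyte, astrocyte, endothelial, mural and microglial lists. Progenitor markers were not used for this, and 1.25% of the unmarked cells had 3 or more of them. Wif1, a secreted Wnt-binding inhibitor, was in 46.6%, 36.7% and 2.18% of the left-out, astrocyte-marked and unmarked cells, with means of 268.2, 207.5 and 1.52 RPKM. Fzd9 was in 45.6%, 51.7% and 4.36%, Fzd1 in 23.3%, 25% and 3.74%, Fzd7 in 18.4%, 20% and 0.623%, Lgr5 in 20.4%, 15% and 0.935%, and Ror2 in 16.5%, 25% and 2.49%. Axin2 was in 46.6%, 41.7% and 24.3%. In contrast Wnt4 was in 3.88%, 5% and 12.1%, and Wnt5a in 37.9%, 58.3% and 60.7%. Within the 69 unmarked P7 cells Wif1 was in 2.90% of cells (mean 2.11 against 111.1 RPKM over all kept P7 cells), Fzd9 in 4.35%, Fzd1 in 7.25%, Ror2 in 2.90%, Lgr5 in none and Axin2 in 20.3%, whereas Wnt4 was in 21.7% and Wnt5a in 46.4%. The summed mean of the astrocyte markers was 10.5 RPKM at E13.5, and 348.2, 2729 and 319.4 RPKM on the postnatal days in order. At P90 only 1 of the 6 markers, Aldoc, was over RPKM 10 in most cells (61.9%), and 2 were at 0 in all cells. There 0.929% of cells had 3 or more astrocyte markers, against 8.90% in heterozygous P1 cells. Whether a marked cell is a glial cell, a doublet or a neuron with glial RNA was not tested, and doublets were not called.

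**Figure D5:**
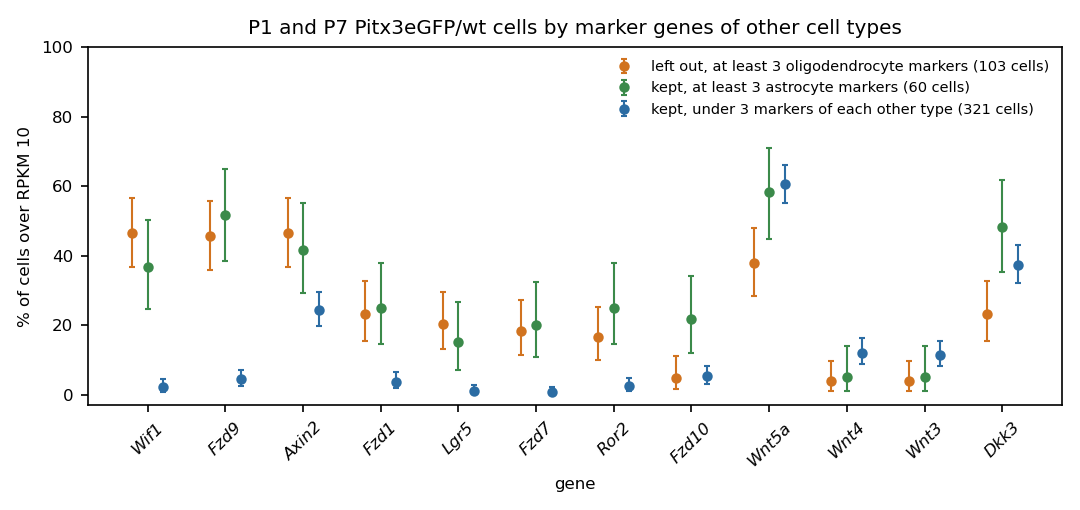
Share of cells over RPKM 10 (y axis, percent) of 12 members (x axis) in heterozygous P1 and P7 cells, split into cells left out for oligodendrocyte markers, 60 kept cells with astrocyte markers, and kept cells with under 3 markers of other types; bars are exact 95% intervals. Wif1, Fzd9 and Lgr5 are detected mainly in marked cells (Wif1 46.6%, 36.7% and 2.18%), and Wnt4 mainly in unmarked ones (3.88%, 5% and 12.1%).

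Besides the members, 60 other genes of the pathway were followed, among them β-catenin, its degradation complex, Dishevelled proteins, TCF/LEF factors and their TLE co-repressors. Over the heterozygous stages β-catenin itself (Ctnnb1) had the highest mean of these, between 90.6 RPKM at P90 and 218.7 at P7. Within Nxph4-high cells Csnk1a1 was higher than Ctnnb1, at 151.2 and 108.4 RPKM from E18.5 to P7 and 84.7 and 68.8 at P90. From E13.5 to E18.5, 3 of 48 were higher and 12 lower (6.25% and 25%, beside 19.3% and 10.1% of all genes), with a median log2 ratio of −0.35; the TCF factor Tcf7l2 went from 37.8 to 2.49 RPKM, the co-repressor Tle3 from 134.2 to 36.4 and Draxin, an inhibitor that guides axons, from 59.2 to 6.22. From E18.5 to P90, 3 of 47 were higher and 19 lower (6.38% and 40.4%, beside 14.9% and 17.7% of all genes; median −0.74), with Draxin at 6.22 and 0.0690 RPKM, Tle3 at 36.4 and 5.03, and Prickle1, of the planar polarity branch, at 5.42 and 14.5. Between genotypes 2 of 47 were higher and 7 lower in homozygous cells at E13.5 (4.26% and 14.9%, beside 6.78% and 6.25% of all genes), with Tle3 at 55.4 against 134.2 RPKM. At P1 none of 52 were higher and 5 lower (0% and 9.62%, beside 6.25% and 5.49%), with Nkd2, a Dishevelled-binding inhibitor, at 3.79 against 13.2 and Tcf7l2 at 9.32 against 20.6. From E18.5 to P7 the heterozygous Tcf7l2 means were 2.90 (Slc6a3-high), 8.97 (Nxph4-high) and 1.51 RPKM (Gad2-high), all under the heterozygous P1 mean. In Slc6a3-high against Nxph4-high cells 5 of 50 were higher and 11 lower from E18.5 to P7 (10% and 22%, beside 9.67% and 11.3% of all genes), with Tle3 at 52.8 and 12.7 RPKM and Wls, which carries Wnt proteins to the cell surface, at 7.18 and 19.5. At P90 it was 4 of 47 higher and 13 lower (8.51% and 27.7%, beside 7.98% and 14.7%), with Tle3 at 12.8 and 0.849 and Tspan12, a co-activator of Norrin-Fzd4 signalling, at 5.18 and 31.9. Against Gad2-high cells 7 of 46 were higher and 8 lower (15.2% and 17.4%, beside 9.63% and 13.8%), with Kremen1, a Dickkopf receptor, at 5.42 and 0.264 RPKM.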

How the data were processed

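Single cells of sorted ventral midbrain were sequenced by Smart-seq2, and the authors mapped the reads with STAR to mm10 with added eGFP and spike-in sequences and kept uniquely mapping reads. The deposited tables hold, per cell, RPKM values and the read count of each of 39468 entries, both computed by the authors with rpkmforgenes on Ensembl 69 annotation. The counts do not use strand, and 8 members share exons with another gene.

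Cells needed over 100000 reads and at least 15% of the 31526 entries with any read detected (3.4% at P90), which 1649 of 1699 cells passed. A further 122 cells with at least 3 of 10 oligodendrocyte markers over RPKM 10 were left out. The authors' filter on alignment quality was not applied, nor was their removal of cells in clusters without eGFP expression. Entries without a symbol took 0.221% of reads. In 45 values reads were present beside an RPKM of 0.

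Each cell was put in its group by the stage and genotype in its labels. As no animal is named, no test was made. Shares have exact Clopper-Pearson intervals, differences of shares Newcombe intervals, and a count of 0 an upper limit of 3 cells. The 50 members and all gene lists were chosen with earlier results of these data known. Text names the 12 members with the highest mean over stages, a list of 12 members of known interest in this tissue, and up to 6 members per direction and comparison past 2-fold. Alternatives were thinning to 100000 reads, pooled reads, other filters and limits, and leaving out each of the 12 named plates. The comparison script was tested on simulated data. Python 3.11.15, numpy 2.4.6, scipy 1.17.1, pandas 2.3.3 and scanpy 1.11.5 were used.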

Additional observations from a re-analysis of the deposited data

Results flagged for a closer look

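Cells that had been left out for oligodendrocyte markers carried members of the pathway above their level in the unmarked kept cells of the same ages. Since 60.2% of the left-out cells also had 3 or more astrocyte markers, the values cannot be assigned to the oligodendrocyte lineage. In such cells of heterozygous mice (34 at P1 and 69 at P7), Wif1 was over RPKM 10 in 46.6% of cells, Axin2 in 46.6%, Fzd9 in 45.6%, Fzd1 in 23.3%, Lgr5 in 20.4% and Fzd7 in 18.4%. In the 82.1% of kept cells at these ages with under 3 markers of other types the same genes were in 2.18%, 24.3%, 4.36%, 3.74%, 0.935% and 0.623% of cells. In the 60 kept cells with astrocyte markers they were in 36.7%, 41.7%, 51.7%, 25%, 15% and 20%. The left-out cells entered the comparisons of stage, genotype and class only under the alternatives that kept them.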

How the results depend on the processing

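Counts of members past 2-fold moved mainly with the minimum mean. A higher minimum can only lower such a count, so these changes describe the setting and not the members. For the alternatives, here or above, the number of members tested and the share over all genes are not given. With a minimum of 5 RPKM in place of 1 they were 10 (from 19) for E13.5 to E18.5, 6 (from 15) for E18.5 to P90, 4 (from 8) for genotype at E13.5, 1 (from 8) for genotype at P1, 2 (from 13) for Slc6a3-high against Nxph4-high cells from E18.5 to P7, 5 (from 17) for the same at P90 and 4 (from 9) against Gad2-high cells. With 0.1 RPKM they were 24 for E18.5 to P90, 20 at both ages of genotype, and 24, 29 and 22 for the classes. Leaving out the highest cell of each gene gave 5 for genotype at E13.5, and leaving out cells with markers of other types 5 for genotype at P1. Leaving out 1 plate at a time gave 18 to 20, 10 to 18, 8 to 11, 10 to 11, 13 to 15, 16 to 17 and 11 to 12 in the order above. The cause of the other changes was not tested.

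Of 1318 log2 ratios of named members under alternatives, 1228 stayed on their side of 2-fold, 69 came under it and 21 changed direction. These members were past 2-fold in the same cells, and several alternatives change few cells. The number that stayed is therefore partly fixed in advance and does not measure robustness. Genotype at E13.5: Lgr5 0.92 without the highest cell. Genotype at P1: Fzd7 −0.61 with pooled reads, −0.60 with median ratios, −0.33 without the highest cell, −0.34 with detection over all entries, −5.06 without other cell types and −0.95 to 2.50 leaving out 1 plate at a time; Sfrp5 0.11 with detection over all entries, 1.67 without other cell types, 8.42 with spike-in cells only and −4.39 to 8.42 by plate; Fzd6 2.27 and Ror2 0.16 without other cell types, and Ror2 0.65 with spike-in cells only and −1.61 to 0.65 by plate. From E18.5 to P7, Lrp6 was 0.19 without the highest cell, 0.23 with detection over all entries and −1.73 to 0.42 by plate, Sfrp1 −1.95 to 0.01 by plate, and Fzd9 0.80 without other cell types. At P90, Wnt5b against Gad2-high cells was 4.68 with a class limit of RPKM 50. Of the differences in share under other detection limits 21 moved beyond their interval and 1 turned: Wnt5b from E18.5 to P90, −0.237 points for cells over RPKM 50. Rare members are limited by the number of cells, and the spread between animals is unknown. No paired analysis was possible because the labels join no groups of stage or genotype by animal or replicate number and no test was made; the classes share plates, and the within-plate values at P90 stand beside Wnt5a, Wnt7a and Wnt7b.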

Other observations

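In the classes of neurons at E13.5 and E15.5, Rspo2 was over RPKM 10 in 13.3% of Nxph4-high cells (5.94 to 24.6), in 1.59% of Slc6a3-high cells (0.0402 to 8.53) and in 4.55% of Gad2-high cells. Rspo3 was in 5%, 9.52% and 4.55% of the same classes and Lgr4 in 21.7%, 12.7% and 4.55%. Rspo1 and Lgr5 were in none of these cells, which allows up to 5% of Nxph4-high and 4.76% of Slc6a3-high cells, and Rspo4 in 1 Gad2-high cell. The intervals of the classes overlap.

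Wnt7b was more often detected in cells under RPKM 150 for Th than in cells over it. In heterozygous cells at E13.5 the shares were 48% (33.7 to 62.6) and 16.7% (9.64 to 26), and in homozygous cells of that age 41.2% (31.5 to 51.4) and 11.7% (5.49 to 21). At P1 the shares of Wnt7b were 37.4% and 20.1% in heterozygous cells and 41% and 37.9% in homozygous cells, where the intervals overlap (30.3 to 52.3 and 27.7 to 49). No test was possible, and these values were chosen after they were seen.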
